A study of Mus musculus with 17 samples.

Results

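The T and NK lineage genes described here are 10 genes chosen by symbol: Cd3e, Cd3g, Lck, Tcf7, Gata3, Bcl11b, Il2rb, Klrd1, Gzmb and Cd7. All 10 were rows of the deposited table of 35321 gene symbols, and all 10 were among the 14920 genes that passed the filter on low counts and were tested. RNA with poly(A) tails was sequenced from blood stem and progenitor cells (HSPC) sorted from the bone marrow of wild-type C57BL/6J mice. The 17 libraries formed 5 groups, each defined by an intraperitoneal injection. All groups share the strain and the sorted population. The PBS group (phosphate-buffered saline, titled day 0) had 5 libraries, and its time after injection is not given in the sources used here. The LPS groups (lipopolysaccharide, from the outer membrane of Gram-negative bacteria and an agonist of TLR4) had 3 libraries at 24 h and 3 at 72 h. The LPS plus antibody groups, given LPS and an antibody against IL-10R, the receptor of interleukin-10, also had 3 libraries at 24 h and 3 at 72 h. No group received the antibody without LPS. The amounts are 5 for LPS and 100 for the antibody, in micrograms in the series' design text and in milligrams in the labels' protocol, and neither unit was assumed. Age, sex and the number of mice behind each library are not given in the sources used here, so the p-values measure the spread between these libraries, which may be partly technical.

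T cells and natural killer (NK) cells descend from lymphoid progenitors that arise in the marrow. T cells are completed in the thymus, where Notch signalling switches on transcription factors such as TCF1 (Tcf7), GATA3 and BCL11B, and later the CD3 chains and the kinase LCK of the T cell receptor complex. NK cells mature under interleukin-15, read through the receptor chain encoded by Il2rb, and carry receptors such as CD94 (Klrd1) and granules with granzyme B (Gzmb). Several of these genes are also transcribed at low level in stem and progenitor cells or in other blood cells, so none of them marks a mature lymphocyte by itself.

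Total counts ran from 10516722 to 16006001 per library, and 3 counts, the limit that a count of 0 allows, correspond to 0.172 to 0.280 on the counts-per-million scale (CPM). That limit covers counting error only. Of 10 markers of stem and progenitor cells (among them Kit, Cd34, Flt3 and Mecom), all 10 exceeded 1 CPM in every PBS and every 24 h library. In each 72 h group 9 of 10 did so in every library. In every PBS library, all 10 B lineage and plasma cell markers and all 10 monocyte and macrophage markers also exceeded 1 CPM, as did all 8 erythroid markers. Levels above 1 CPM therefore cannot tell HSPC from these other cells, and the HSPC label was not tested. The LPS 24 h library numbered 1 had the lowest scaling factor of the 17 (0.799), with the others between 0.947 and 1.12.

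In the HSPC of PBS-injected mice, Lck and Cd7 were the most abundant of the 10 genes and Bcl11b the least. Per kilobase of exon, the mean level was 14.6 ± 3.01 CPM per kilobase for Lck (SD, n = 5) and 13.1 ± 7.82 for Cd7 (SD, n = 5). Tcf7 followed at 5.73 ± 1.65 CPM per kilobase (SD, n = 5) and Il2rb at 3.62 ± 1.597 (SD, n = 5). Below these stood, in order, Klrd1, Gata3, Gzmb, Cd3g, Cd3e and Bcl11b, with means per kilobase of 2.35, 1.81, 1.72, 0.692, 0.426 and 0.196. Of the 9 neighbouring pairs in this order, only Tcf7 and Il2rb were farther apart than the larger of their SDs.

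Of the 170 values (10 genes in 17 libraries), 39 were below 1 CPM. Cd3e was below 1 CPM in 12 of 17 libraries, Bcl11b in 12, Cd3g in 11, Gzmb in 3 and Gata3 in 1. Lck, Tcf7, Il2rb, Klrd1 and Cd7 were at or above 1 CPM in all 17 libraries. The mean over all libraries was below 1 CPM for Cd3e (0.847) and Bcl11b (0.717). For comparison, 8.59% of all tested genes had a mean below 1 CPM. Cd3e, Cd3g and Bcl11b passed the filter mainly through PBS, where 4 of 5 libraries reached its minimum of 0.760 CPM, against at most 1 library of any other group. A gene that passes in this way is low elsewhere by selection, so some counts below are also given for the other 7 genes.

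**Figure D1:**
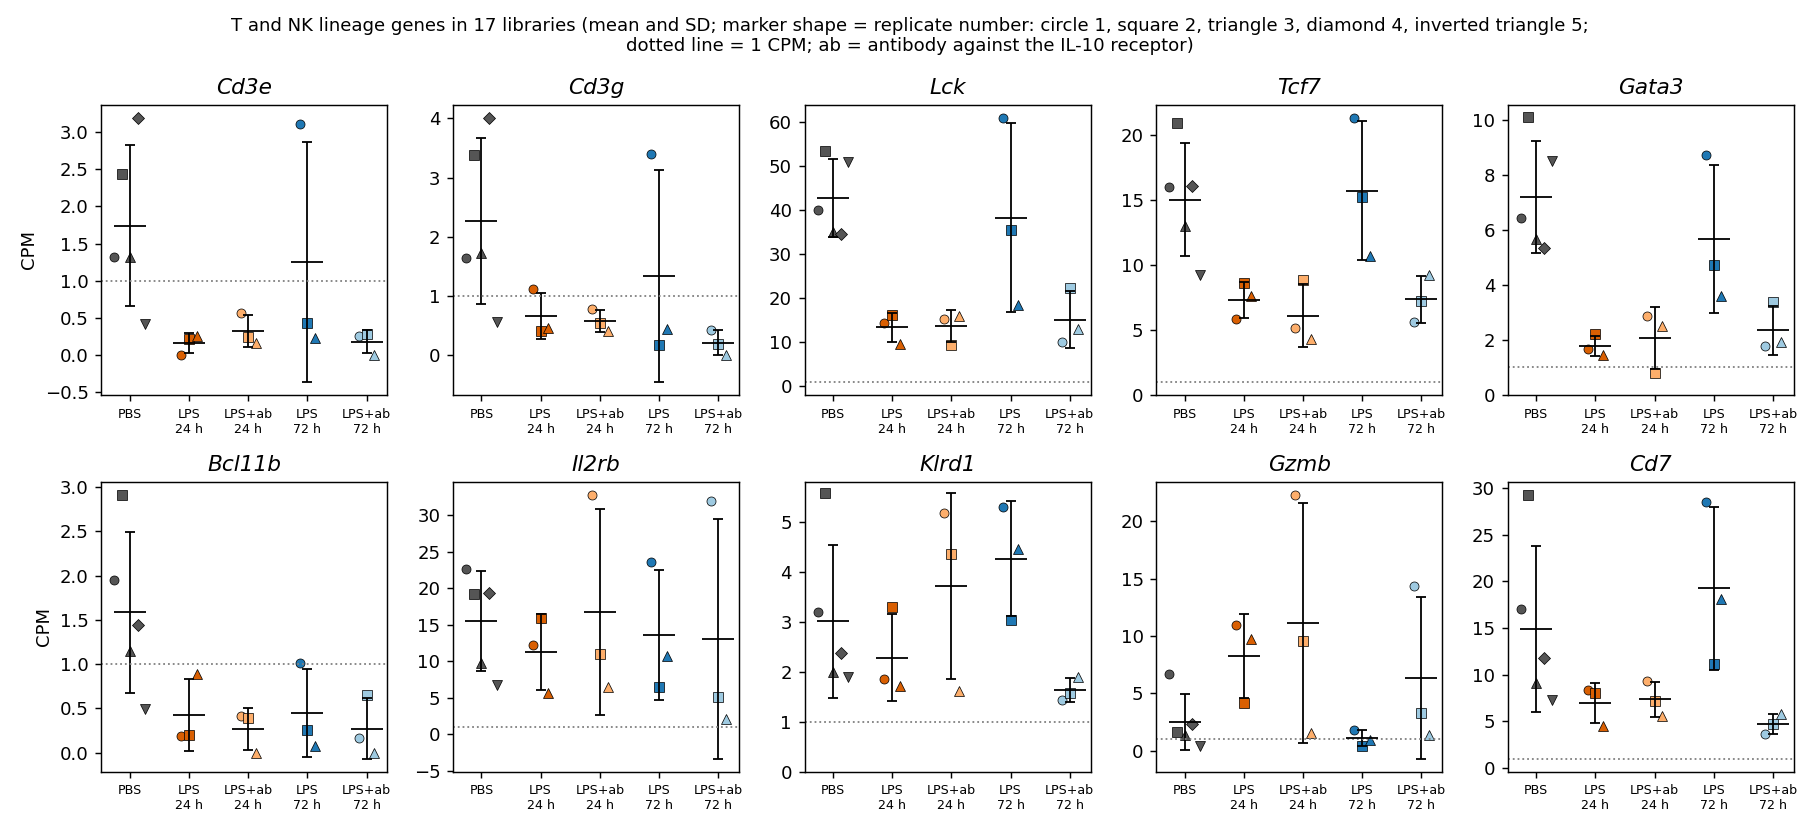
CPM of each of the 10 genes in the 17 libraries, by group (PBS n = 5, other groups n = 3), with the mean as a horizontal line and the SD as an error bar. The marker shape gives the replicate number, the dotted line marks 1 CPM, and each panel has its own linear scale. Lck, Tcf7 and Gata3 sit lower in both 24 h groups and in the LPS plus antibody 72 h group than in most PBS libraries, and the LPS 72 h libraries are spread widely.

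LCK is the kinase that phosphorylates the CD3 chains, and its mRNA was lower than in PBS in 3 of the 4 LPS-treated groups. The gene lies at chr4:129548344-129573641, minus strand (coordinates of genes are from GENCODE on GRCm38, and all 10 are protein-coding genes). In the 5 PBS libraries Lck stood at 39.9, 53.3, 35.1, 34.6 and 50.9 CPM, and in the 3 LPS 24 h libraries at 14.3, 16.1 and 9.63 CPM. With antibody at 24 h the values were 15.3, 9.37 and 15.9 CPM. Both 24 h groups thus lay wholly below the PBS libraries and overlapped each other. At 72 h the LPS libraries held 60.8, 35.4 and 18.4 CPM and the LPS plus antibody libraries 9.92, 22.3 and 12.9 CPM. The LPS 72 h group reached from below to above the PBS range, whereas every LPS plus antibody 72 h library stayed below it. In edgeR's quasi-likelihood test with Benjamini-Hochberg adjustment over all tested genes, Lck fell by 1.68 on the log2 scale in LPS 24 h against PBS (SE 0.359, adjusted p = 0.0026). It was also lower with antibody than with PBS at 24 h (3.15-fold, edgeR adjusted p = 0.00727) and at 72 h (2.85-fold, edgeR adjusted p = 0.0168).

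GATA3 is a transcription factor of early T cells and of innate lymphoid cells, encoded at chr2:9857078-9890034, minus strand. Gata3 stood at 6.41, 10.1, 5.68, 5.32 and 8.49 CPM in PBS, at 1.67, 2.197 and 1.47 CPM in LPS 24 h, and at 2.87, 0.781 and 2.52 CPM in LPS plus antibody 24 h. The LPS 72 h libraries held 8.71, 4.73 and 3.58 CPM and the LPS plus antibody 72 h libraries 1.77, 3.36 and 1.91 CPM. All libraries of both 24 h groups and of the LPS plus antibody 72 h group were below the lowest PBS library. In edgeR's test Gata3 was 4.02-fold lower in LPS 24 h than in PBS (log2 change -2.01, SE 0.420, adjusted p = 0.00229). Lck and Gata3 were the most alike pair among the 10: the root mean square difference of their centred log2 CPM over 17 libraries was 0.248, against 0.511 for the next pair, Klrd1 and Cd7.

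Because Lck and Gata3 varied together, their promoter windows were read side by side: the 250 bases before the annotated starts, 2 for Lck and 1 for Gata3, from RefSeq on GRCm38.p6, printed 5′ to 3′ on the gene's strand. Capitals mark 6-base matches, on either strand, to 6 motifs. RUNX factors are known to bind the letters TGTGGT. TCF and LEF factors bind the letters CTTTGA, and GATA-family factors the letters AGATAA. E-box factors bind the letters CAGCTG or, for some of them, CAGGTG, and those of the ETS family the letters AGGAAG. A capital run that reads as the reverse complement of these letters lies on the other strand, and no matches overlapped.
Lck start 1, GRCm38.p6 chr4:129573642-129573891, minus strand: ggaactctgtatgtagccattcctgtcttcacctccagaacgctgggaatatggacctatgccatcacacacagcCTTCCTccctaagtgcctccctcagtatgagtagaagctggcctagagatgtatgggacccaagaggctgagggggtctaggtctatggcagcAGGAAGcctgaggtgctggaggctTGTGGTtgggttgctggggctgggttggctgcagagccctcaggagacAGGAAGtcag
Lck start 2, GRCm38.p6 chr4:129558373-129558622, minus strand: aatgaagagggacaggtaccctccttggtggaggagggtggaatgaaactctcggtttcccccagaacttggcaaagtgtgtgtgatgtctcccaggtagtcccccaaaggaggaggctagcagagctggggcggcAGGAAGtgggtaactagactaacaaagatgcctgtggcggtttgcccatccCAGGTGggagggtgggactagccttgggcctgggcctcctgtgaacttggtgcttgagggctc
Gata3, GRCm38.p6 chr2:9878601-9878850, minus strand: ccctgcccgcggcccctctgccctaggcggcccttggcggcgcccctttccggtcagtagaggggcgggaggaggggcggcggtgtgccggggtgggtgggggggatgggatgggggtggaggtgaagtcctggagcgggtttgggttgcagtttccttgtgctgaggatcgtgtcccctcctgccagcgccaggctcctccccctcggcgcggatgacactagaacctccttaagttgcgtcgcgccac
The window of Lck start 1 held 1 RUNX match and 3 ETS matches. That of Lck start 2 held 1 CAGGTG and 1 ETS match, and that of Gata3 held no match to any of the 6. Of 32851 windows of the same length in RefSeq, 14.05% held the RUNX letters, 29.5% the ETS letters, 13.8% the TCF letters and 9.99% the GATA letters. The E-box letters CAGGTG were in 17.2% and the alternative CAGCTG in 13%. A match of letters is a description of the window and not a measured binding site.

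Tcf7 encodes TCF1, the factor that acts downstream of Notch at the entry to the T lineage and is also needed by NK and innate lymphoid progenitors. The gene lies at chr11:52252371-52283014, minus strand. Its level was 16.02, 20.9, 13.02, 16.1 and 9.19 CPM in PBS, 5.84, 8.58 and 7.59 CPM in LPS 24 h, and 5.18, 8.82 and 4.31 CPM in LPS plus antibody 24 h. The 72 h values were 21.4, 15.2 and 10.7 CPM with LPS and 5.63, 7.19 and 9.26 CPM with LPS plus antibody. The 24 h groups were wholly below PBS. The highest LPS plus antibody 72 h library (9.26 CPM) exceeded the lowest PBS library (9.19 CPM). In edgeR's test Tcf7 was 2.04-fold lower in LPS 24 h (adjusted p = 0.0157), 2.46-fold lower in LPS plus antibody 24 h (adjusted p = 0.0106) and 2.04-fold lower in LPS plus antibody 72 h (adjusted p = 0.039), each against PBS.

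BCL11B seals T lineage commitment. Bcl11b (chr12:107910403-108003602, minus strand) was scarce throughout, at 0.491 to 2.91 CPM in PBS and at 0 to 1.01 CPM in the 12 other libraries, 2 of which had a count of 0. The log2 change against PBS was -1.81 at LPS 24 h (edgeR adjusted p = 0.118), -1.86 at LPS 72 h (0.453), -2.48 at LPS plus antibody 24 h (0.0682) and -2.58 at LPS plus antibody 72 h (0.0847). None of these passed the threshold of 0.05. In LPS plus antibody 24 h, all 3 libraries were below the lowest PBS library, with 11 counts between them. Because Bcl11b passed the filter through PBS, low levels in other groups are partly set by that selection, and this separation adds no evidence.

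Cd3e and Cd3g encode the epsilon and gamma chains of CD3, the signalling part of the T cell receptor. Both lie on the same chromosome, Cd3e at chr9:44998740-45009627, minus strand and Cd3g at chr9:44969572-44980431, minus strand. Cd3e stood at 1.32, 2.44, 1.32, 3.19 and 0.421 CPM in PBS and at 0, 0.206 and 0.255 CPM in LPS 24 h, a sum of 7 counts over 3 libraries. It held 0.560, 0.234 and 0.163 CPM in LPS plus antibody 24 h, 3.12, 0.423 and 0.219 CPM in LPS 72 h, and 0.252, 0.280 and 0 CPM in LPS plus antibody 72 h. Outside PBS, only LPS 72 h library 1 exceeded 1 CPM. In edgeR's test Cd3e was 9.99-fold lower in LPS 24 h than in PBS (SE 1.01 on the log2 scale, adjusted p = 0.0179) and 9.87-fold lower in LPS plus antibody 72 h (adjusted p = 0.0469). The size of these changes rests on 7 and 6 counts in the lower groups and is imprecise. Because Cd3e passed the filter through PBS, low levels in other groups are partly set by that selection. The call was lost in 2 of 16 other fits for LPS 24 h and in 10 of 16 for LPS plus antibody 72 h.

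Cd3g stood at 1.63, 3.38, 1.72, 4.01 and 0.561 CPM in PBS and 1.11, 0.412 and 0.447 CPM in LPS 24 h. The values were 0.770, 0.547 and 0.407 CPM in LPS plus antibody 24 h, 3.39, 0.169 and 0.439 CPM in LPS 72 h, and 0.420, 0.187 and 0 CPM in LPS plus antibody 72 h. In the last of these groups Cd3g was 11.1-fold lower than in PBS (edgeR adjusted p = 0.0362), with all 3 libraries below the PBS range. That call was lost in 7 of 16 other fits. Cd3g also passed the filter through PBS, so low levels elsewhere are partly set by selection and the separation adds no evidence. The log2 change of Cd3g was -1.81 at LPS 24 h (edgeR adjusted p = 0.104) and -1.95 at LPS plus antibody 24 h (edgeR adjusted p = 0.106). Both passed when only the groups compared were fitted (edgeR adjusted p = 0.0408 and 0.0443), with the same limit. The antibody groups at 72 h and 24 h did not differ past the threshold (log2 change -1.53, edgeR adjusted p = 0.918). Among genes with a mean of at least 1 CPM, the closest to Cd3g over the 17 libraries were Cd3d, the delta chain of the same complex (root mean square difference 0.472), and Trbc2, a constant segment of the T cell receptor beta chain (0.531), against a median of 1.34 over 13631 genes.

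CD7 is an immunoglobulin-family protein of T cells, NK cells and early lymphoid progenitors. Cd7 (chr11:121036747-121039418, minus strand) stood at 17.02, 29.3, 9.06, 11.8 and 7.23 CPM in PBS, at 8.34, 8.03 and 4.53 CPM in LPS 24 h, and at 9.31, 7.18 and 5.53 CPM in LPS plus antibody 24 h. It held 28.5, 11.2 and 18.1 CPM in LPS 72 h and 3.62, 4.67 and 5.80 CPM in LPS plus antibody 72 h. Of these groups only the last lay wholly below PBS, and there Cd7 was 3.15-fold lower (edgeR adjusted p = 0.026). At LPS 24 h the log2 change of -1.09 did not pass (edgeR adjusted p = 0.0534). It passed in 4 of 8 alternative fits, among them the replicate number as a block (log2 change -1.39, edgeR adjusted p = 0.0293). DESeq2's Wald test was another (log2 change -1.08, adjusted p = 0.0255). Leaving out 1 library at a time, 2 of 8 fits passed. The nearest gene to Cd7 was Gm11775 (root mean square difference 0.219), an antisense gene that overlaps all 2672 bases of Cd7. Its total of 248 counts was 9.81% of the 2528 counts of Cd7. Since the strand setting of the counting is not given in the sources used here, reads of these genes cannot be told apart. Antisense genes also overlap Gata3, Tcf7 and Cd3e, with counts of 4.11%, 0.675% and 7% of those of the gene itself.

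Il2rb encodes the beta chain shared by the receptors for interleukin-2 and interleukin-15, at chr15:78479256-78495271, minus strand. It passed none of the 9 comparisons. Levels ran from 6.74 to 22.6 CPM in PBS, 5.61 to 15.9 in LPS 24 h, 6.42 to 32.8 in LPS plus antibody 24 h, 6.51 to 23.6 in LPS 72 h and 2.12 to 31.9 in LPS plus antibody 72 h. The library numbered 1 was the highest in 4 of these 5 groups, LPS 24 h being the exception, and the ranges overlapped in every pair of groups. The nearest genes to Il2rb were Txk, a T cell kinase (root mean square difference 0.467), and Gimap4, a lymphocyte GTPase (0.475).

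Klrd1 encodes CD94, the partner of the NKG2 receptors on NK cells, at chr6:129591782-129598775, plus strand. It stood at 3.20, 5.59, 2.01, 2.38 and 1.89 CPM in PBS, 1.85, 3.30 and 1.72 CPM in LPS 24 h, and 5.18, 4.37 and 1.63 CPM in LPS plus antibody 24 h. It held 5.31, 3.04 and 4.46 CPM in LPS 72 h and 1.43, 1.59 and 1.91 CPM in LPS plus antibody 72 h. The last 2 groups did not overlap, yet the log2 difference of -1.37 between them did not pass (edgeR adjusted p = 0.0607). Klrd1 passed no other comparison.

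Gzmb, which encodes the cytotoxic protease granzyme B, lies at chr14:56258838-56262260, minus strand. It stood at 6.66, 1.65, 1.38, 2.32 and 0.351 CPM in PBS, 10.9, 4.12 and 9.76 CPM in LPS 24 h, and 22.3, 9.53 and 1.54 CPM in LPS plus antibody 24 h. At 72 h it held 1.83, 0.423 and 0.951 CPM with LPS and 14.4, 3.27 and 1.34 CPM with LPS plus antibody. The log2 change against PBS was 1.73 at LPS 24 h (edgeR adjusted p = 0.119) and 2.16 at LPS plus antibody 24 h (0.0719), neither past the threshold. Without PBS library 1, which held 6.66 CPM, the changes were 2.53 (edgeR adjusted p = 0.0334) and 2.98 (0.0245). Without LPS plus antibody 24 h library 3 the second was 2.71 and also passed (edgeR adjusted p = 0.0316). Between the LPS groups Gzmb was 7.74-fold lower at 72 h than at 24 h (edgeR adjusted p = 0.0484), with no overlap. That call was lost in 8 of 14 other fits, among them 5 of the 6 that leave out 1 library, where only the fit without LPS 24 h library 2 kept it (edgeR adjusted p = 0.0444, against 0.0714 to 0.144 in the others). The window before its start, shown because its course differs from that of Lck and Gata3, held 2 RUNX matches and none of the other 5.
Gzmb, GRCm38.p6 chr14:56262335-56262584, minus strand: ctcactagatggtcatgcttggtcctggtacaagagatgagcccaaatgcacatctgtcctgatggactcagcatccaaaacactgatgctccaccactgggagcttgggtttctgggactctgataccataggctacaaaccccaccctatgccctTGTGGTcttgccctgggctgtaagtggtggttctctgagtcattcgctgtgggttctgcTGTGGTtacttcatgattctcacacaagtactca

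Gzmb levels varied alongside markers of mast cells and basophils (Cpa3, Mcpt8, Prss34, Fcer1a, Ms4a2 and Hdc). The gene nearest to Gzmb over the 17 libraries was Ms4a2, the beta chain of the high-affinity IgE receptor (root mean square difference 0.565, against a median of 1.61). The summed level of the 6 markers was 98.3 to 378 CPM in PBS, 176 to 564 in LPS 24 h, 98.8 to 895 in LPS plus antibody 24 h, 113 to 115 in LPS 72 h and 81.5 to 494 in LPS plus antibody 72 h. In PBS and in each of the 2 antibody groups, the library with the most Gzmb had the highest sum and the library with the least Gzmb had the lowest, and the same held in LPS 24 h. In LPS 72 h the sums were nearly equal and the library with the most Gzmb had the lowest. Of the 6 markers, 4 fell from LPS 24 h to LPS 72 h, against 16.4% of all tested genes. Erythroid markers also varied widely, with summed levels of 267 to 602 CPM in LPS 24 h and 5.85 to 89.5 CPM in LPS 72 h. In both antibody groups the erythroid sums ranked the libraries as Gzmb did, from 1408.5 to 20.8 CPM at 24 h and 794 to 7.85 at 72 h. The library with the most Gzmb had the highest erythroid sum in PBS and LPS 72 h, but not in LPS 24 h. The library with the least Gzmb had the lowest erythroid sum in LPS 24 h. In PBS (234 CPM, lowest 172) and LPS 72 h (23.1 CPM, lowest 5.85) it did not. Erythroid markers thus shared the Gzmb ranking in part. None of the 6 mast cell and basophil markers was at 0 in all libraries of a group. The part of these cells in the Gzmb result was not tested.

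**Figure D2:**
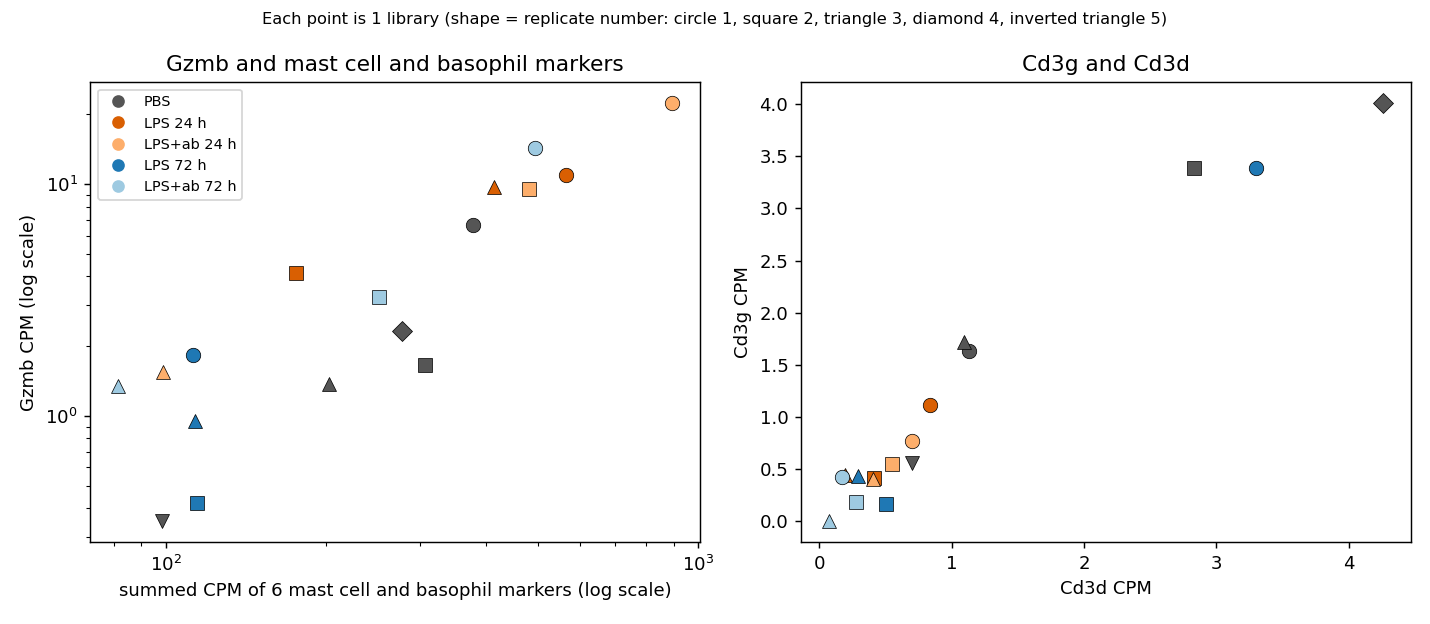
Left, Gzmb CPM against the summed CPM of 6 mast cell and basophil markers, both on log scales. Right, Cd3g CPM against Cd3d CPM on linear scales. Each point is 1 of 17 libraries, with colour for the group and shape for the replicate number. The library with the highest Gzmb (22.3 CPM) has the highest marker sum (895 CPM), and the 3 libraries with Cd3g above 2 CPM are PBS libraries 2 and 4 and LPS 72 h library 1.

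The comparison of LPS 24 h with PBS asks what changed in HSPC a day after LPS. Of the 10 genes 4 fell (Cd3e, Lck, Tcf7 and Gata3) and 0 rose in edgeR's test, that is 3 of the 7 genes not carried through the filter by PBS. Over all tested genes, 18.5% were lower and 19.1% higher, so LPS 24 h was a comparison in which many genes moved. The median log2 change was -1.39 for the 10 genes, -1.03 for the other 7 and -0.03 for all tested genes. The LPS 24 h libraries lay wholly below PBS for 4 of 10 genes and 3 of the 7, against 22.2% of all tested genes. Without LPS 24 h library 1, Lck and Gata3 passed and the count was 2.

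With antibody at 24 h, 3 genes were lower than in PBS (Lck, Tcf7 and Gata3) and 0 higher, against 12.5% and 11.7% of all tested genes. The median log2 change was -1.48 for the 10 and -1.01 for the 7 without Cd3e, Cd3g and Bcl11b, against -0.0010 for all tested genes. For 4 genes, Bcl11b besides these 3, the libraries lay wholly below PBS (3 of the 7), against 16.7% of all tested genes. Without LPS plus antibody 24 h library 2 the count was 1, Tcf7. In the direct comparison of LPS plus antibody with LPS at 24 h, 0 of 10 genes passed in edgeR, 0 had an unadjusted p below 0.05, and DESeq2 called 0. Of all tested genes 0% passed, and 1.83% had an unadjusted p below 0.05. For Lck the difference was 0.03 on the log2 scale with an SE of 0.382.

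**Figure D3:**
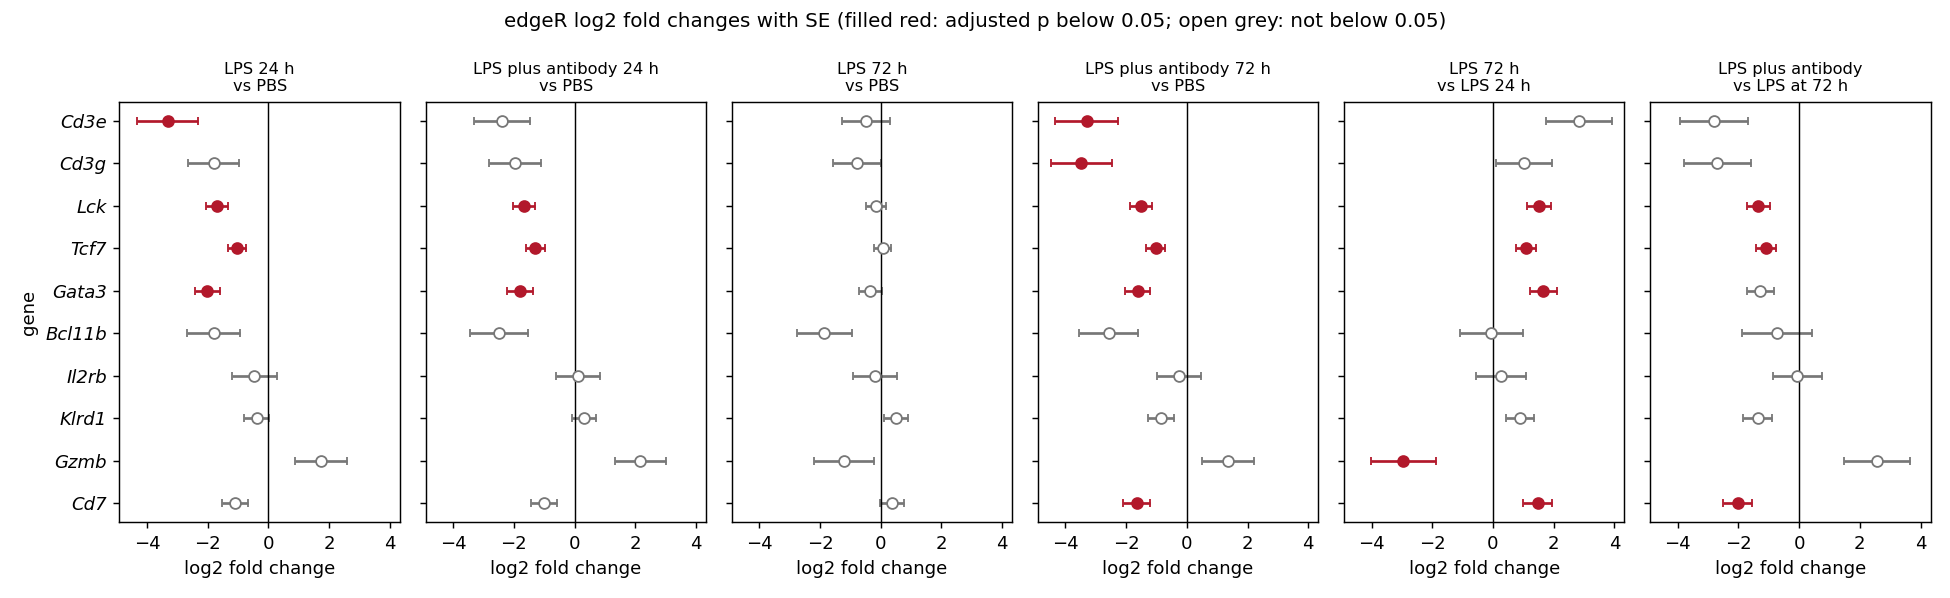
edgeR log2 fold changes of the 10 genes in 6 comparisons, with the SE as error bar. Filled red points have an adjusted p below 0.05, and the comparisons against PBS share the PBS libraries. LPS 72 h against PBS has no filled point, whereas LPS plus antibody 72 h against PBS has 6.

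At 72 h, LPS against PBS gave 0 of 10 genes in edgeR, 0 with an unadjusted p below 0.05 and 0 with DESeq2. Of all tested genes 0.0201% passed and 11.4% had an unadjusted p below 0.05. Log2 changes ran from -1.86 for Bcl11b to 0.51 for Klrd1 (edgeR adjusted p = 0.638). LPS plus antibody 72 h against PBS gave 6 lower genes (Cd3e, Cd3g, Lck, Tcf7, Gata3 and Cd7) and 0 higher in edgeR, against 6.43% of all tested genes lower and 6.81% higher. The libraries of 5 genes lay wholly below PBS, against 13.6% of all tested genes. Among the 7 genes other than Cd3e, Cd3g and Bcl11b, 4 were lower and 3 lay wholly below PBS. The median log2 change was -1.56 for the 10 and -1.03 for the 7. These calls rested on few libraries. The count was 0 without LPS plus antibody 72 h library 1 or 3, 2 without its library 2, 1 without PBS library 2, and 3 without PBS library 3 or 4.

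The direct comparison of LPS plus antibody with LPS at 72 h asks what the receptor block did once LPS had acted for 3 days. Lck was 2.54-fold lower with antibody (edgeR adjusted p = 0.0284), Tcf7 2.13-fold lower (0.0392) and Cd7 4.08-fold lower (0.0117). The other 7 did not pass, among them Gata3 (log2 difference -1.27, edgeR adjusted p = 0.0628), Cd3e (-2.80, 0.0958) and Gzmb (2.57, 0.112). These 3 lower genes and 0 higher stand against 6.48% and 8.64% of all tested genes. The libraries of 4 genes (Tcf7, Gata3, Klrd1 and Cd7) lay wholly below those of LPS 72 h, against 16.1% of all tested genes. Every one of the 10 genes was highest, within the LPS 72 h group, in library 1, and without that library the count was 0. It was 1 without LPS 72 h library 2 or LPS plus antibody 72 h library 1.

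From 24 h to 72 h after LPS without antibody, Lck rose 2.87-fold (edgeR adjusted p = 0.00788), Tcf7 2.14-fold (0.0213), Gata3 3.17-fold (0.0112) and Cd7 2.76-fold (0.0256), and Gzmb was lower. That is 4 higher and 1 lower, against 14.7% and 16.4% of all tested genes. The libraries of these same 5 genes did not overlap between the times, against 22.4% of all tested genes that were wholly higher and 23% wholly lower. Without LPS 72 h library 1 the count was 0, without LPS 24 h library 1 it was 3, and without LPS 24 h library 3 it was 2. With antibody, 0 of 10 genes differed between 72 h and 24 h in edgeR, where 0% of all tested genes passed and 4.26% had an unadjusted p below 0.05. There 1 gene, Klrd1, had an unadjusted p below 0.05 (log2 change -1.18, edgeR adjusted p = 0.918), and DESeq2 called 0.

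Whether the antibody effect differed between the times was tested as an interaction. In edgeR 0 of 10 genes passed, against 6.35% of all tested genes, and 5 had an unadjusted p below 0.05, against 24.2% of all tested genes. The smallest adjusted p belonged to Cd7 (log2 difference of the effects -2.11, SE 0.660, edgeR adjusted p = 0.0669) and Klrd1 (-2.07, SE 0.657, edgeR adjusted p = 0.0702). DESeq2 called both. Leaving out LPS 24 h library 2 or LPS plus antibody 24 h library 3 gave 1 call, Klrd1 each time. Leaving out LPS plus antibody 24 h library 2 gave Gata3 alone, and leaving out LPS 72 h library 3 gave Lck alone.

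**Figure D4:**
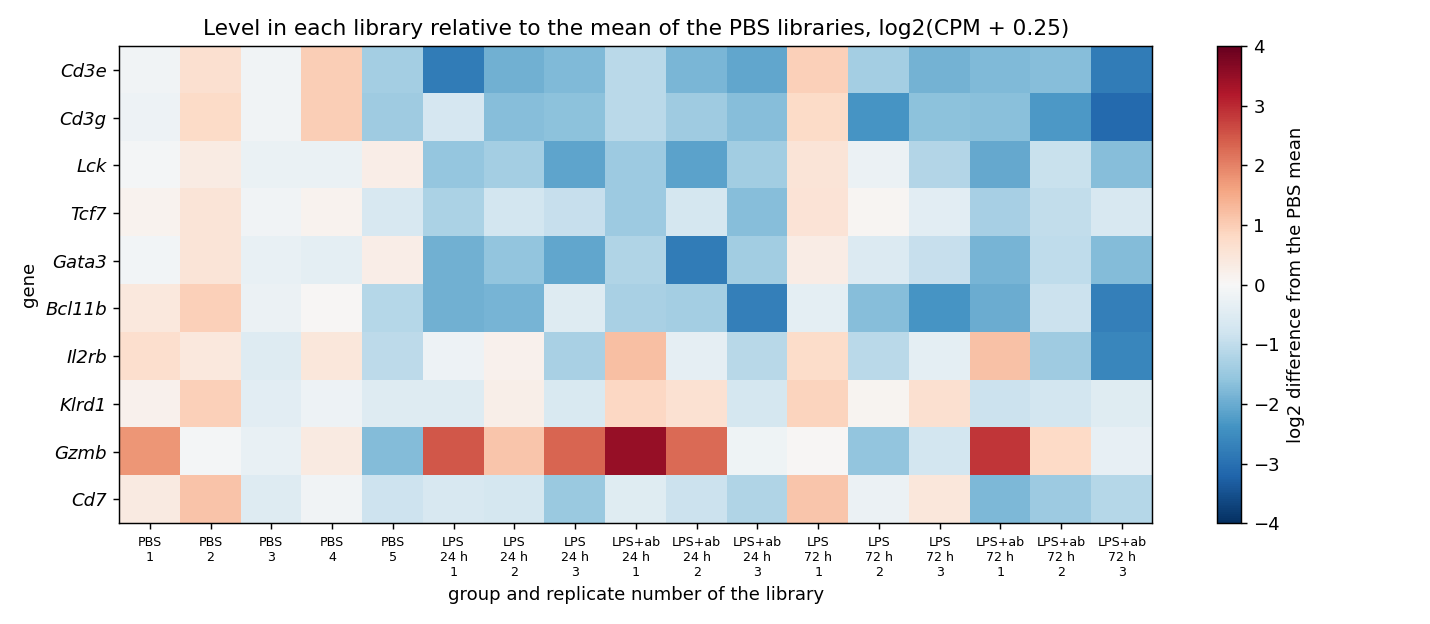
Level of each gene in each library relative to the mean of the PBS libraries, as a difference of log2(CPM + 0.25), from blue (lower) to red (higher). Columns are the 17 libraries by group and replicate number. LPS 72 h library 1 is near or above the PBS mean for most genes while LPS 72 h libraries 2 and 3 are lower, and Gzmb is raised in library 1 of both antibody groups.

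A wider list of T lineage genes, the 10 left out, was read in the same fits. Of 38 listed genes 37 were in the table and 35 were tested, with Ptcra and Sh2d1a removed by the filter. Cd3d, Cd8b1, Trac and Dtx1 passed it only through PBS and are low elsewhere by selection, so counts are also given for the other 31. In LPS 24 h against PBS 19 fell (54.3%, against 18.5% of all tested genes) and 0 rose in edgeR, with a median log2 change of -1.58. Of the 31, 17 fell, and their median was -1.53. Coreceptor genes had the greatest decreases: Cd4 was 14.6-fold lower (edgeR adjusted p = 0.000665), with 19.3 ± 14.4 CPM in PBS (SD, n = 5) and 1.29 ± 0.498 in LPS 24 h (SD, n = 3), and Cd8a was 10.5-fold lower (edgeR adjusted p = 0.00132). Cd8b1, the CD8 beta chain, also fell, but its 2 counts in LPS 24 h are too few for a fold. Cd3e, by contrast with Cd4, held only 1.74 ± 1.08 CPM in PBS (SD, n = 5). Which cells carried the Cd4 and Cd8a transcripts was not tested. In LPS plus antibody 24 h 17 of 35 were lower (15 of the 31), against 12.5% of all tested genes, among them Rag2, a recombinase subunit also used by B cells (5.82-fold, edgeR adjusted p = 0.0123). In LPS 72 h against PBS 0 of 35 passed in edgeR, 2 had an unadjusted p below 0.05 and DESeq2 called 1. In LPS plus antibody 72 h 10 were lower (8 of the 31), against 6.43% of all tested genes, among them Cd3d (11.4-fold, edgeR adjusted p = 0.0269) and Trbc2 (6.99-fold, edgeR adjusted p = 0.0176). Cd8b1 had a count of 0 in all 3 of those libraries. Its PBS mean of 1.63 CPM was 6.55 times the floor of 3 counts per library (0.248 CPM). The PBS libraries ran from 0.251 to 3.26 CPM, so the lowest lay at that floor and the ratio is no bound.

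Between LPS 24 h and LPS 72 h, 17 of the 35 T lineage genes rose (16 of the 31), against 14.7% of all tested genes, led by Rag2 (10.1-fold, edgeR adjusted p = 0.00239), Il7r, the interleukin-7 receptor (7.03-fold, edgeR adjusted p = 0.000837), and Cd5, a T cell surface receptor (6.63-fold, edgeR adjusted p = 0.0127). With antibody against LPS at 72 h, 5 were lower (5 of the 31), against 6.48% of all tested genes, among them Trbc2 (5.24-fold, edgeR adjusted p = 0.0352), the costimulatory receptor gene Cd28 (3.79-fold, edgeR adjusted p = 0.046) and Zap70, the kinase that acts after LCK (3.60-fold, edgeR adjusted p = 0.0228). Without LPS 72 h library 1 these counts were 8 and 0.

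NK and innate lymphoid genes other than the 10 formed the next list. Of 35 listed genes 34 were in the table and 33 were tested, Ifng being removed by the filter. Klrc2, Klra1, Klra4 and Klra8 passed it in so few libraries that setting 1 group aside would remove them, and none of them was called. In LPS 24 h against PBS 6 fell in edgeR, including Il18r1, the interleukin-18 receptor, and Rora, a factor of innate lymphoid cells. That is 18.2% of the list, near the 18.5% of all tested genes, and the median log2 change was -0.32. In LPS plus antibody 24 h 3 were lower (9.09%, against 12.5% of all tested genes) and 1 was higher, Il15ra, which presents interleukin-15 (1.68-fold, edgeR adjusted p = 0.0485). Its libraries overlapped PBS, and without both 24 h libraries numbered 1 the number higher was 0. In LPS plus antibody 72 h 3 were lower and 2 were higher, or 9.09% and 6.06%, against 6.43% and 6.81% of all tested genes: Il15ra (1.87-fold, edgeR adjusted p = 0.0348) and the chemokine gene Ccl5 (14.4-fold, edgeR adjusted p = 0.0385). Ccl5 ran from 3.11 to 367 CPM in the 3 libraries of that group, so its libraries overlapped PBS.

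With antibody against LPS at 72 h, Il15ra was 2.24-fold higher (edgeR adjusted p = 0.0187) and 6 of the 33 genes were lower (18.2%, against 6.48% of all tested genes), among them Tyrobp, the adaptor of activating NK and myeloid receptors. Without LPS 72 h library 1, 0 were higher and 1 was lower. From LPS 24 h to LPS 72 h 9 rose (27.3%, against 14.7% of all tested genes), but without LPS 72 h library 1 the numbers were 5 higher and 1 lower. In LPS 72 h against PBS 0 passed in edgeR, with 3 at an unadjusted p below 0.05 and 0 called by DESeq2. Tyrobp and Il18r1 were also the 2 genes of the list whose antibody effect differed between the times (log2 differences -1.89 and -1.36, edgeR adjusted p = 0.0322 and 0.019). That is 6.06% of the list, near the 6.35% of all tested genes. Without LPS 72 h library 1, or without both 24 h libraries numbered 1, 0 genes of the list passed that test in edgeR.

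**Figure D5:**
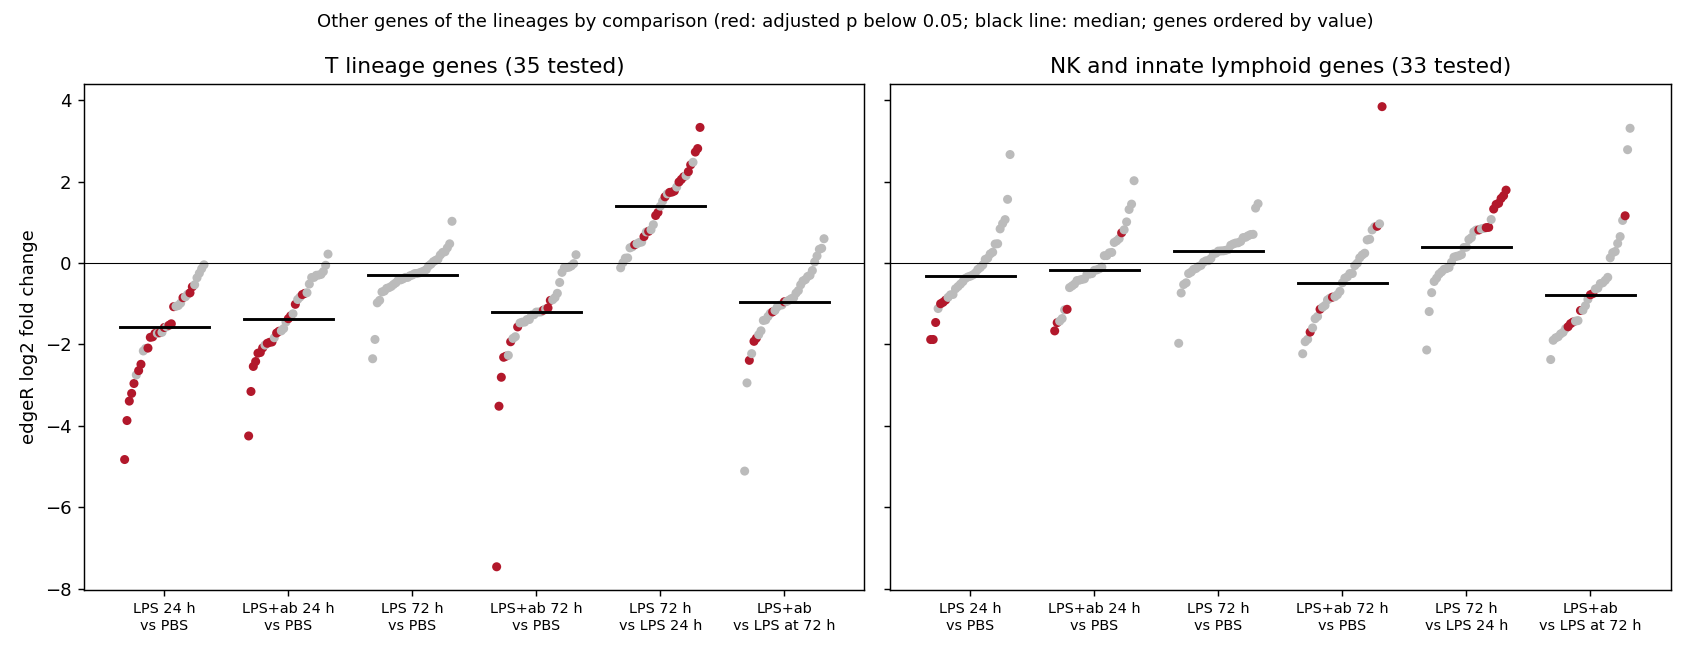
edgeR log2 fold changes of 35 T lineage genes (left) and 33 NK and innate lymphoid genes (right) other than the 10, in 6 comparisons, ordered by value, with the median as a black line. Red points have an adjusted p below 0.05. The T lineage medians are -1.58 at LPS 24 h against PBS and 1.40 from LPS 24 h to LPS 72 h, the NK medians -0.32 and 0.39. The lowest T lineage point at LPS plus antibody 72 h is Cd8b1, whose fitted value is no bound because its count was 0 there.

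Markers of other cell types moved in the same comparisons. The summed level of 10 mature T cell markers, which include Cd3e and Cd3g, was 47.7 to 95.2 CPM in PBS, 14.6 to 26.8 in LPS 24 h, 19.9 to 22.0 in LPS plus antibody 24 h, 27.8 to 60.5 in LPS 72 h and 20.2 to 30.3 in LPS plus antibody 72 h. Cd247 and Cd4 held much of that sum in PBS, at means of 20.6 and 19.3 CPM. Cd3e and Cd3g held means of 1.74 and 2.26 CPM there, so the sum says little about them. Of 10 mature NK cell markers, which include Il2rb and Klrd1, 0 passed in any of the 4 comparisons with PBS in edgeR (0 to 2 at an unadjusted p below 0.05, and 0 called by DESeq2). Their sum was 99.7 to 282 CPM in PBS and 120 to 288 in LPS 24 h. Most of that sum was 1 gene, Nkg7, at 75.8 to 235 CPM in PBS and 97.2 to 246 in LPS 24 h. The sum therefore says little about the other markers, such as Ncr1 (1.03 to 7.35 CPM in PBS). The sum of 10 B lineage and plasma cell markers was 406 to 1373 CPM in PBS and 74.6 to 99.7 in LPS 24 h, where 4 of the 10 fell. Of 10 monocyte and macrophage markers 8 fell in LPS 24 h, and of 10 HSPC markers 7 fell, their sum going from 1613 to 2440 CPM in PBS to 936 to 1109 in LPS 24 h. Of 7 tested markers of plasmacytoid dendritic cells, 6 fell and 1 rose in LPS 24 h. These counts stand against 18.5% of all tested genes lower and 19.1% higher in LPS 24 h than in PBS. None of the markers in these sets of 10 for T, NK and B cells was at 0 in all libraries of a group, whereas Cd8b1, which is in none of the sets, was at 0 in all 3 LPS plus antibody 72 h libraries. In these bulk libraries fewer cells of a type and less RNA per cell cannot be told apart, and the part of each cell type in the results was not tested.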

How the data were processed

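The authors deposited 1 table of raw read counts per gene symbol for all 17 libraries, with 0 columns left unmatched to the labels. The submitters' processing notes name HISAT2 2.2.0, Subread, featureCounts 2.1.1, R 4.3.2, DESeq2 and the build GRCm38, with no role or order. The annotation, the strand setting and the handling of shared reads are not given in the sources used here, so overlapping and antisense genes cannot be separated. Exon lengths came from GENCODE on GRCm38, and promoter windows, for 7 of the 10 genes, from RefSeq.

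The tests used edgeR 4.0.16 (R 4.3.3). Its filterByExpr function, with a minimum count of 10 and a minimum total of 15, retained 14920 genes, and libraries were scaled by the trimmed mean of M-values (TMM). The quasi-likelihood test was fitted to all 17 libraries at once with a mean per group. Within each of 9 comparisons the Benjamini-Hochberg adjustment ran over all tested genes, and genes below 0.05 were called. The standard error is the size of the log2 change over the root of F. CPM uses the TMM-scaled total. Replicates of a group differed beyond sampling noise (smallest chi-square per degree of freedom 11.1), so none was counted as a duplicate. The fit was tested on simulated data.

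All 10 genes are named. From the T and NK lists, up to 3 called genes that rose most and 3 that fell most in a comparison were eligible, and for each of the 10 with a mean of at least 1 CPM the 2 genes nearest in centred log2 CPM (prior count 2). Other list genes named (Il18r1, Rora and Tyrobp in comparisons with LPS or PBS) were chosen after their values were seen. The 10 genes and the lists were chosen with earlier results of these data known. Alternatives were DESeq2 size factors, upper-quartile factors, the Wald test of DESeq2 1.42.0, limma 3.58.1 voom with sample quality weights, no filter, a fit of the compared groups only, a replicate block, and fits without single libraries or without both 24 h libraries numbered 1, whose recorded names are written in another style. The runs of the 2 lists without libraries were added after seeing the data.

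Replicate numbers come from the titles, which do not say what they share. Deviations from the group means correlated at 0.191, 0.188 and 0.158 in same-numbered LPS 24 h and PBS libraries, and in no other comparison did every pair exceed 0.1. Between the 2 antibody groups the correlations were 0.723, -0.022 and 0.697. Differently numbered libraries were not correlated for reference, so these values cannot show whether the numbers pair mice. The main fit used no pairing. The PBS libraries also carry a name style of their own, and whether a style marks a batch is not given in the sources used here. If it does, batch and group cannot be told apart in the comparisons with PBS.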

Additional observations from a re-analysis of the deposited data

How the results depend on the processing

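Of 21 calls of the 10 genes, 3 held in every fit run (Lck and Gata3 at LPS 24 h against PBS, Tcf7 at LPS plus antibody 24 h against PBS), and 0 changed sign. Of 69 pairs that were not called, 28 changed sign in at least 1 fit and 16 were called in at least 1. The causes were not tested. Without both 24 h libraries numbered 1, the number of the 10 genes called was 2 for LPS 24 h against PBS and 3 for LPS 72 h against LPS 24 h, and with antibody against LPS at 24 h the log2 differences of Cd3e and Lck were -0.19 and -0.0066. DESeq2's Wald test called 5 for LPS plus antibody 24 h against PBS, 6 for antibody against LPS at 72 h and 2 for the interaction. Fitting the compared groups alone gave 6 calls for LPS plus antibody 24 h against PBS and 1 for antibody against LPS at 72 h, with 7 genes tested. Voom called 3 for LPS plus antibody 72 h against PBS.

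With the replicate block, 2 genes were called for LPS plus antibody 72 h against PBS and 5 for LPS 24 h against PBS, the extra being Cd7. Whether the numbers pair libraries is not known in either comparison. In the other 7 comparisons the block moved no count of the 10 genes by over 1.5 times. Same-numbered correlations ran from -0.365 to 0.723, with 11 of 24 over 0.1.

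Leaving out 1 library at a time, the number called ran from 2 to 5 for LPS 24 h against PBS, 1 to 4 for LPS plus antibody 24 h, 0 to 0 for LPS 72 h and 0 to 6 for LPS plus antibody 72 h, each against PBS. It ran from 0 to 4 for antibody against LPS at 72 h, 0 to 5 for LPS 72 h against LPS 24 h and 0 to 1 for the interaction. Log2 differences with antibody against LPS at 24 h ran from -0.15 to 0.23 for Lck and -1.13 to 0.49 for Bcl11b, and Gzmb at LPS plus antibody 72 h against PBS ran from -0.10 to 2.16. The number of values below 1 CPM was 39, and 40 with unscaled totals. Depth limits Cd3e, Cd3g and Bcl11b most, whose sums per LPS group were as low as 6 counts.

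Over all genes that each fit tested, the number called for LPS 72 h against PBS was 3 in edgeR, 178 in DESeq2, 2170 with voom, 99 when only these groups were fitted and 0 with the replicate block. Here 14920 genes were tested, except 14554 in the fit of only these groups. Fits below without both 24 h libraries numbered 1 tested 15172. For LPS plus antibody 72 h against PBS it was 1975, with 3053 by voom, 374 with the block and 3076 without both 24 h libraries numbered 1. With the block it went from 3605 to 1721 for LPS plus antibody 24 h against PBS. Without both libraries numbered 1 it went from 5616 to 3678 for LPS 24 h against PBS. For antibody against LPS at 72 h it was 2256, 4433 by voom and 1123 in the fit of these groups alone, which tested 13855 genes. The interaction gave 947 in edgeR and between 127 (without both libraries numbered 1) and 1709 (DESeq2) otherwise.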
